A study of Mus musculus with 3 samples.

Results

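Prostaglandin synthesis, breakdown and sensing were followed through 9 genes in mouse testis cells cultured toward Leydig cells. The 9 genes were chosen for their roles in the pathway, with earlier results of these data known. They were drawn from 24698 genes in a merged table of UMI counts (unique molecular identifiers, each marking 1 captured transcript molecule). They are Ptgs1, Ptgs2, Ptgds, Ptges, Ptgis, Hpgd, Ptgr1, Ptger4 and Ptgfr. All 9 had a row in the table, and 8 held at least 20 UMIs over the 3 days, the exception being Ptgfr.

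The cells came from testes of adult C57BL/6 males aged 8 to 12 weeks and were sorted as Sca1-positive and cKit-negative. The libraries came from successive stages of 1 culture scheme. Cells recovered for 18 hours on Matrigel in medium with 10% FBS, and were then expanded over 3 days in DMEM/F12 with Normocin, PdgfAA, PdgfBB and Fgf2 (each 10 ng/ml) and SAG (0.5 uM), a small molecule that activates hedgehog signalling. Differentiation medium carried penicillin/streptomycin in place of Normocin, kept the growth factors and SAG, and added LiCl2 (5 mM) and DAPT (10 uM), an inhibitor of Notch processing. Day 4 cells came from expansion medium, and day 7 and day 14 cells had spent 3 and 10 days in differentiation medium. Comparisons with day 4 therefore cannot tell the change of medium from time in culture. Drop-seq, which captures single cells with barcoded beads in droplets and counts transcripts near their 3′ ends, was performed on days 4, 7 and 14 with 1 library per day. The number of animals behind each library is not given in the sources used here.

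The merged table held 2980, 2171 and 973 barcodes for days 4, 7 and 14, with 12677110, 11627440 and 5324400 UMIs. The median barcode held 2886.5, 3285 and 3272 UMIs. The unit of level is CPM: UMIs of the gene in every 1000000 UMIs of the group. Intervals are exact at 95% (Poisson for levels, conditional binomial for ratios of levels, Clopper-Pearson for shares) and reflect counting error alone. No test was possible with a single library for each day, and a difference between days cannot be told apart from a difference between libraries. Transcripts may be captured unequally, so levels of the 9 genes were compared between groups and not with each other.

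Many barcodes did not stand alone. Within a library, 1304 barcodes of day 4, 1026 of day 7 and 504 of day 14 matched at least 1 other barcode in all but the last of their 12 bases, which was 43.8%, 47.3% and 51.8% of the barcodes. They formed 351, 269 and 132 sets, of which 274, 229 and 115 held 4 barcodes. Barcodes in sets were shallower, with medians of 1665, 1951 and 2135.5 UMIs against 5039, 6464 and 7508 in the barcodes that stood alone. Such sets may each come from 1 bead, so shares and other values per barcode are also given after each set was merged, which left 2027, 1414 and 601 merged barcodes. Sums over a whole library are not changed by merging. No barcode was shared between libraries.

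Prostaglandins are made from arachidonic acid, which phospholipases release from membranes. The cyclooxygenases encoded by Ptgs1 and Ptgs2 turn it into prostaglandin H2, and terminal synthases convert this unstable intermediate into the individual prostaglandins, which act on G protein-coupled receptors and are inactivated by oxidation and reduction. In the testis the pathway is studied for effects on steroid synthesis in Leydig cells, and the prostaglandin D synthase encoded by Ptgds is also a secreted carrier of lipophilic molecules.

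The largest difference among the 9 genes was that of Ptgds, the lipocalin-type prostaglandin D synthase (chromosome 2 of GRCm38, from 25466709 to 25470046, minus strand). It had a day 4 level of 6.78 CPM (5.43–8.38), a day 7 level of 12.0 CPM (10.1–14.2) and a day 14 level of 1552 CPM (1519–1586). These levels rest on 86, 140 and 8263 UMIs. Ptgds was low on days 4 and 7 and high on day 14, with intervals far apart. The day 14 level was 129-fold that of day 7 (109–153) and 229-fold that of day 4 (185–286). Without the merged barcode that held the most Ptgds UMIs in each library these ratios were 195 and 396, because 1 barcode held 40 of the 86 UMIs of day 4 and 1 barcode held 54 of the 140 UMIs of day 7. With every barcode given the same weight they were 101 and 335.

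The step from day 4 to day 7 was smaller and depended on few barcodes. Ptgds was 1.77-fold higher on day 7 (1.35–2.35), and 3.31-fold higher with equal weight per barcode. On each of these days 29 barcodes held any Ptgds UMI. Many of those UMIs were in the rare barcodes in which the steroidogenic enzyme genes Cyp11a1 and Hsd3b1 together reached 10 of every 10000 UMIs. These were 8 barcodes on day 4 and 33 on day 7, and they held 72.1% and 79.3% of all Ptgds UMIs. Within them Ptgds stood at 1022 and 811 CPM, against 1.90 and 2.52 CPM in the other barcodes of the same libraries. Of these barcodes, 7 of 8 and 10 of 33 held a Ptgds UMI, and 1 barcode held 40 of the 62 UMIs on day 4 and 54 of the 111 on day 7. Without that barcode the levels were 567 CPM (355–858) and 454 CPM (344–588). The enzyme-rich barcodes then held 47.8% and 66.3% of the remaining Ptgds UMIs, so both their level and their share rested in part on a single barcode in each library. After merging, only 5 such barcodes remained on day 4 and 15 on day 7.

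On day 14 Ptgds was read in many barcodes but was concentrated in some. Of 973 barcodes, 594 held a Ptgds UMI, which was 61.0% (57.9–64.1), and 44.3% of the 794 barcodes of at least 1500 UMIs did so after thinning to that depth. After merging, the share was 73.0%. Prm1, a sperm protamine gene that the sorted cells should lack, was read in 9.15% of the same barcodes (7.41–11.1). The share that free RNA gives depends on how much of a transcript is free. The Prm1 share therefore sets no background for a gene as abundant as Ptgds, or for the other genes. The 98 barcodes with the most Ptgds UMIs held 78.7% of them, and the highest 2 held 621 and 552. The amount of Ptgds was therefore uneven among barcodes, and how many of those with few UMIs held free RNA was not tested.

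Ptgds was also higher where steroidogenic enzymes were high within the day 14 library. The limit of 10 per 10000 UMIs for Cyp11a1 plus Hsd3b1 placed 418 barcodes (43.0%) in a steroid-enzyme-high group and 555 in a steroid-enzyme-low group, with median depths of 3603 and 3063 UMIs. The limit divides a continuous range and does not define cell types: 43 barcodes lay between 8 and 12 per 10000. Ptgds stood at 713 CPM in the low group (681–746) and 2410 CPM in the high group (2351–2470), a ratio of 3.38 (3.21–3.56). The groups overlapped at the level of barcodes, since the median barcode held 0.876 Ptgds UMIs per 10000 in the low group and 4.80 in the high group, and the highest barcode held 141 and 390. With Hsd3b1 alone as the dividing gene the ratio was 1.93, and with a limit of 20 it was 2.75.

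Across ranges of the enzyme sum, Ptgds differed mainly in a step near the limit. It stood at 672 CPM in the 324 barcodes with neither enzyme and at 738 CPM above 0 and below 10 per 10000. In the ranges from 10, from 20 and from 40 upward it stood at 2089, 2507 and 2456 CPM. The 18 barcodes between 8 and 10 had 1216 CPM (1021–1438), and the 25 barcodes between 10 and 12 had 2476 CPM (2213–2761). These rest on 137 and 323 UMIs, and neither level was recomputed without its richest barcode. Cyp17a1, which encodes the enzyme that makes androgen precursors, followed another course over the same 5 ranges, from 11.6, 29.5 and 40.9 CPM to 261 and 2672 CPM. Between the ranges from 20 and from 40 upward, Cyp17a1 thus differed far more than Ptgds did. Inside the high group, a split added after the data had been seen gave 1700 CPM of Ptgds (1620–1782) in the 229 barcodes without a Cyp17a1 UMI and 2851 CPM (2770–2935) in the 189 barcodes with one, which were deeper (medians of 3030 and 5781 UMIs).

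**Figure D1:**
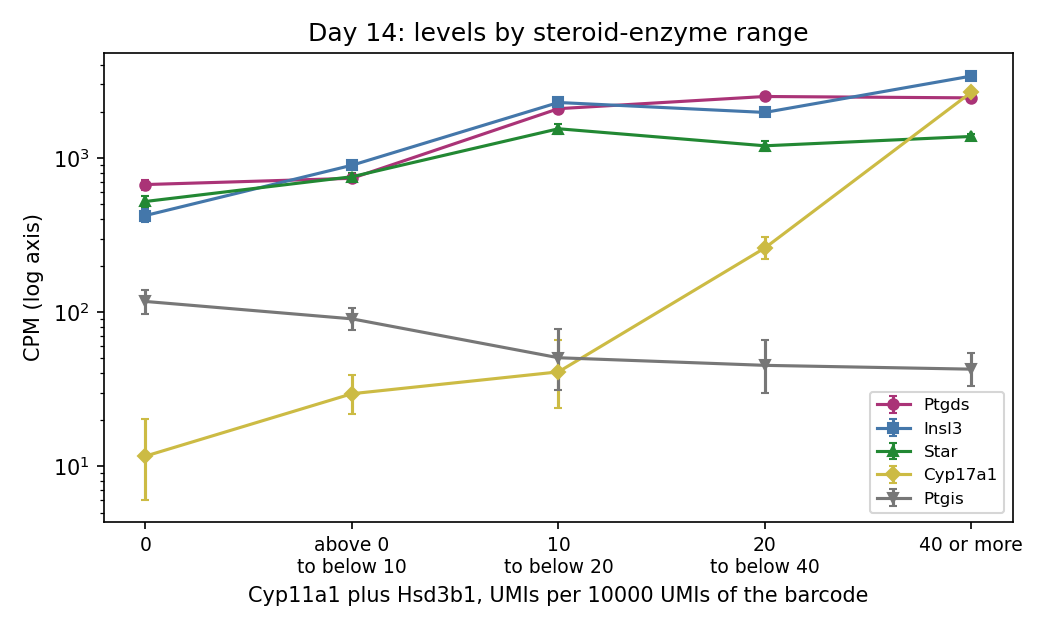
Level in CPM (log axis) of Ptgds, Insl3, Star, Cyp17a1 and Ptgis on day 14, in 5 ranges of Cyp11a1 plus Hsd3b1 UMIs per 10000 UMIs of the barcode; points are summed levels and bars are exact Poisson 95% intervals, with lines drawn only to guide the eye. Ptgds went from 738 CPM below the limit of 10 to 2089 CPM just above it, while Cyp17a1 was 40.9 CPM there and 2672 CPM in the highest range.

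Ptgds UMIs in the low group may include free RNA, and its part was not tested. The level in the low group was 29.6% of that in the high group for Ptgds (28.1–31.1), 24.7% for Insl3, which encodes a Leydig cell hormone, and 48.8% for Star, the cholesterol carrier of mitochondria. It was 1.33% for Cyp17a1 (1.01–1.71) and 4.42% for Lhcgr, the receptor gene of luteinizing hormone. Since the groups were formed by steroid enzymes, genes that vary with those enzymes are low in the low group by construction. In the 327 day 14 barcodes left out of the merged table, with a median of 319 UMIs, Ptgds stood at 1251 CPM and Cyp17a1 at 1889 CPM.

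The genes most like Ptgds were sought in 2 ways. Over day 4, day 7 and both day 14 groups, the nearest of 9169 genes with at least 200 UMIs by Euclidean distance of centred log2(CPM + 1) were Serpina5, Serpina3c and Insl3, at distances of 0.70, 0.84 and 0.87. Serpina5, a serine protease inhibitor, stood at 0.237, 2.67, 119 and 376 CPM in these 4 groups. Over the 973 barcodes of day 14, the 5 genes with the highest Pearson correlation to Ptgds of 5492 genes were Insl3 (0.37), Serpina5 (0.35), Fabp3 (0.34), Defb19 (0.33) and Gsta2 (0.32). Over the 601 merged barcodes their values were 0.43, 0.38, 0.36, 0.36 and 0.34. Insl3 and Serpina5 were found by both measures. These correlations describe barcodes of 1 library, which share depth and free RNA.

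Both cyclooxygenase genes, in contrast, were lowest on day 14. Ptgs2, the inducible cyclooxygenase gene (chromosome 1, from 150100031 to 150108227, plus strand), had a day 4 level of 68.2 CPM (63.7–72.9), a day 7 level of 57.4 CPM (53.1–61.9) and a day 14 level of 26.1 CPM (21.9–30.8). It was highest on day 4 and lowest on day 14, 2.61-fold lower than on day 4 (2.18–3.15) and 2.20-fold lower than on day 7 (1.83–2.66). Scaling by the median ratio of genes, which moved all day 14 over day 7 ratios by 0.21 on the log2 scale, left 1.90-fold of the latter. With equal weight per barcode it was also below 2-fold. Ptgs2 UMIs were found in 14.1%, 14.8% and 6.37% of barcodes. On day 14 the share lay below the 9.15% of Prm1, while on days 4 and 7 it lay above the Prm1 shares of 4.30% and 4.24%. The day 14 level of Prm1 was 18.0 CPM, below that of Ptgs2, so the Prm1 share sets no background for Ptgs2. After thinning, the Ptgs2 shares were 7.99%, 6.49% and 2.64%, and after merging 17.4%, 21.0% and 9.48%.

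Ptgs1, the constitutive form, had a day 4 level of 5.13 CPM (3.96–6.54), a day 7 level of 10.1 CPM (8.32–12.1) and a day 14 level of 1.31 CPM (0.529–2.71), from 65, 117 and 7 UMIs. Day 7 was thus the highest, 1.96-fold above day 4 (1.44–2.70), and day 14 was 7.65-fold below day 7 (3.60–19.5). The latter was 4.10-fold after thinning and 10.3-fold without the merged barcode with the most Ptgs1 UMIs. Day 14 was 3.90-fold below day 4 (1.79–10.1), and 1.87-fold after thinning. Its share of barcodes was 1.74%, 4.74% and 0.719%, near or below that of Prm1 on each day.

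In the day 14 groups Ptgs2 stood at 33.1 CPM in the low group (26.6–40.7) and 19.0 CPM in the high group (14.10–25.04), 1.74-fold lower in the latter (1.22–2.51). This ratio depended on the limit. Of the 50 UMIs in the high group, 35 came from the barcodes between 10 and 20 per 10000, where the level was 84.3 CPM, and 16 came from a single barcode. In the ranges from 20 and from 40 upward it was 8.36 and 6.18 CPM, and with a limit of 20 the level was 5.90-fold lower in the high group. Only 7 Ptgs1 UMIs were read on day 14, 6 in the low and 1 in the high group, too few for a ratio.

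Within each library, the level of Ptgs2 differed between barcodes with high and low levels of other gene programmes. For each of 5 short gene lists, the barcodes of a day were ranked by the summed UMIs of the list per 10000, split into 4 bins, and the highest bin was compared with the lowest (the lowest bin is larger where many barcodes had no UMI of the list, and the highest smaller where few had any). With the matrix list (Postn, Tnc, Col5a2, Eln, Fbln5, Lox), Ptgs2 stood at 123 and 19.8 CPM in the high and low bins of day 4, a ratio of 6.21 (4.60–8.56). The ratio was 3.22 on day 7 (2.40–4.39), from 87.7 and 27.2 CPM, and 1.91 on day 14 (1.01–3.78), from 30.6 and 16.0 CPM. Ptgs2 was therefore higher in matrix-rich barcodes on days 4 and 7. The day 14 ratio had the same direction but rests on 33 and 15 UMIs, with an interval reaching nearly to 1. In that library 1 barcode held 22 of the 139 Ptgs2 UMIs, and the ratios between bins were not recomputed without it.

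The contractile list (Acta2, Tagln, Myl9, Cnn1, Tpm2) gave a ratio of Ptgs2 of 4.00 on day 4 (3.10–5.24) and 1.94 on day 7 (1.497–2.546), but 0.322 on day 14 (0.130–0.698). The direction on day 14 was thus opposite to that of the earlier libraries, and rests on 48 UMIs. On day 14 the list was also made up differently, with Myl9 at 189 of its 396 CPM and Cnn1 at 0. With the immediate-early list (Fos, Fosb, Jun, Junb, Egr1, Ier2, Atf3), genes that respond within minutes to stimulation or to handling of cells, the ratio was 1.78 on day 4 (1.43–2.21), 2.33 on day 7 (1.72–3.18) and 11.3 on day 14 (6.13–22.7). On day 14 it came from 71.0 CPM in the high and 6.28 CPM in the low bin. What part dissociation of the cultures had in it was not tested. Ptgs2 was lower where the cell cycle list (Mki67, Top2a, Cdk1, Ccnb1, Birc5, Cenpf, Tpx2, Prc1) was high on day 4 (ratio 0.603, 0.497–0.728) and day 7 (0.743, 0.597–0.921), with 0.961 on day 14 (0.573–1.54). With the interferon list (Ifit1, Ifit3, Isg15, Irf7, Ifi44, Rsad2, Oasl2, Bst2) its ratio was 1.24, 0.904 and 0.304 on days 4, 7 and 14, and the last (0.129–0.665) rests on 33 UMIs. On day 14 that ranking was mainly one by Bst2, which made up 704 of the 738 CPM of the list and was 1.63-fold higher in the high than in the low group, so it does not stand for the list as a whole. After merging of barcodes, the matrix ratios were 6.47, 3.15 and 3.11, and the immediate-early ratios 2.18, 2.07 and 9.09 on days 4, 7 and 14. Merging moved the day 14 contractile ratio from 0.322 to 0.498 and the day 14 interferon ratio from 0.304 to 0.147, so the size of both is uncertain.

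**Figure D2:**
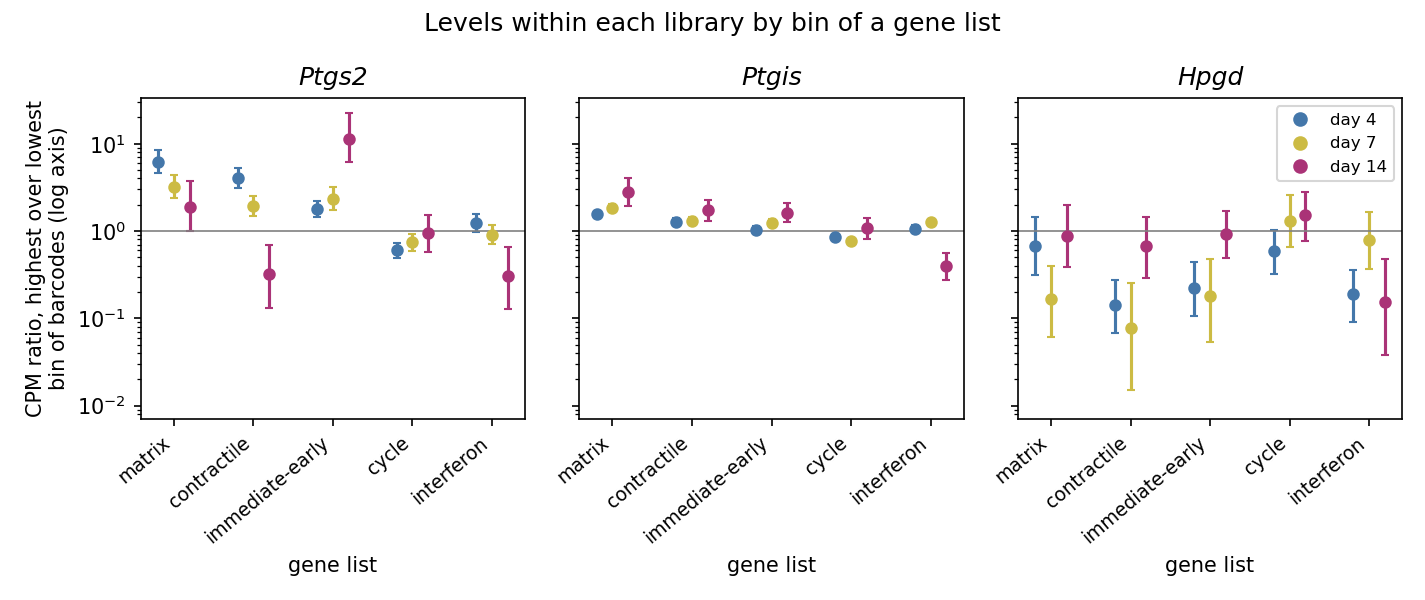
Ratio of CPM (log axis) of Ptgs2, Ptgis and Hpgd between the bin of barcodes with the highest and the bin with the lowest summed level of 5 gene lists, within each of the 3 libraries; bars are exact 95% intervals from the counts, the grey line marks equal levels, and a point is drawn where both bins together held at least 20 UMIs. Ptgs2 lay at 6.21 with the matrix list on day 4 and at 11.3 with the immediate-early list on day 14, while Hpgd lay at 0.142 and 0.0772 with the contractile list on days 4 and 7.

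The terminal synthase gene Ptgis, which encodes prostacyclin synthase (chromosome 2, from 167191805 to 167240604, minus strand), was highest on day 7 and lowest on day 14. It had a day 4 level of 310 CPM (301–320), a day 7 level of 372 CPM (361–383) and a day 14 level of 72.9 CPM (65.8–80.5). Days 4 and 7 were thus close, with a ratio of 1.20 (1.15–1.25), and day 14 was 5.10-fold below day 7 (4.60–5.68). The share of barcodes with a UMI was 53.5%, 59.3% and 26.0%, and 32.6%, 36.3% and 8.82% after thinning. In the day 14 low and high groups Ptgis stood at 101 CPM (89.1–113) and 44.4 CPM (36.8–53.3), 2.27-fold lower in the high group (1.82–2.84). After thinning, this difference was 1.83-fold and no longer past 2-fold. Along the enzyme ranges Ptgis was at 117, 90.4, 50.6, 45.1 and 42.6 CPM. Its largest difference between neighbouring ranges lay across the limit of 10, as for Ptgds but in the opposite direction. The intervals of the ranges below the limit overlapped (97.3–140 and 76.5–106), as did those of the ranges above it. The ratio of Ptgis between matrix bins was 1.55 on day 4, 1.82 on day 7 and 2.77 on day 14 (1.94–4.04).

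Ptges, which encodes an inducible prostaglandin E synthase, had a day 4 level of 11.2 CPM (9.43–13.2), a day 7 level of 6.19 CPM (4.85–7.80) and a day 14 level of 12.8 CPM (9.92–16.2). Day 7 was the lowest, and the day 14 level was 2.06-fold that of day 7 (1.46–2.91) and 1.14-fold that of day 4 (0.841–1.53). At a depth of 1500 UMIs per barcode the former ratio was 1.27. Ptges stood at 14.1 and 11.4 CPM in the low and high groups of day 14, with overlapping intervals. UMIs were in 4.30%, 3.22% and 6.27% of barcodes, no higher than the Prm1 share on any day. That comparison sets no background, and these are not read here as shares of expressing cells.

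Because Ptgs2 supplies the substrate of Ptges and Ptgis, their detection in the same barcodes was compared at 1500 UMIs. On day 4, Ptgis was read in 40.4% of the 178 barcodes with Ptgs2 (33.2–48.0) and 31.9% of the 2049 without (29.9–34.0). On day 7 the shares were 43.4% of 113 (34.1–53.0) and 35.9% of 1629. After merging, they were 35.1% and 33.0% on day 4 and 36.6% and 35.6% on day 7, within counting error of each other. Ptges was in 1.12% of the Ptgs2-positive and 1.71% of the other barcodes of day 4, with overlapping intervals (0.136–4.00 and 1.19–2.37). Ptgs1 was likewise rare in both, at 1.12% and 0.830%. Thus a higher share of Ptgis beside Ptgs2 was not detectable at this depth once barcode sets were merged. On day 14 only 21 thinned barcodes held Ptgs2.

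The breakdown enzymes differed from each other. Hpgd, which encodes 15-hydroxyprostaglandin dehydrogenase and starts the inactivation of prostaglandins, had a day 4 level of 7.81 CPM (6.35–9.51), a day 7 level of 4.39 CPM (3.27–5.77) and a day 14 level of 12.0 CPM (9.26–15.3). It was lowest on day 7, with 2.74-fold more on day 14 (1.87–4.04). After thinning this low point was lost, with ratios of 0.994 for day 7 over day 4 (0.562 before) and 1.10 for day 14 over day 7. On day 14 it stood at 16.3 CPM in the low (11.9–21.9) and 7.60 CPM in the high group (4.64–11.7), 2.15-fold lower in the latter (1.24–3.85). It was read in 2.25%, 1.70% and 4.93% of barcodes, below Prm1 in each library.

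Despite these low shares, Hpgd was unevenly placed within the early libraries. Between contractile bins it stood at 3.21 CPM in the high and 22.6 CPM in the low bin of day 4, and at 0.929 and 12.0 CPM on day 7, which was 7.05-fold (3.67–14.9) and 13.0-fold lower (3.99–66.7) where contractile genes were high. These rest on 71 and 30 UMIs. It was also 4.44-fold lower with high immediate-early genes on day 4 and 5.57-fold lower on day 7. With high interferon genes it was 5.30-fold lower on day 4, and with high matrix genes 5.94-fold lower on day 7. The intervals of the interferon list on day 7 and the matrix list on day 4 held 1. On day 4, 1 barcode held 14 of the 99 Hpgd UMIs, and the ratios between bins were not recomputed without it. Ptgs2 was thus higher and Hpgd lower in the high than in the low contractile bin on days 4 and 7. The other cyclooxygenase gene, Ptgs1, had contractile ratios of 0.370 on day 4 (0.163–0.791) and 1.29 on day 7 (0.727–2.34).

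Ptgr1, which encodes a prostaglandin reductase that acts on the product of Hpgd and also on leukotriene B4, differed by less than 2-fold between days. It had a day 4 level of 76.3 CPM (71.5–81.2), a day 7 level of 112 CPM (106–118) and a day 14 level of 94.1 CPM (86.0–103). The highest level was that of day 7, with a ratio to day 4 of 1.47 (1.35–1.60). The low and high groups of day 14 had 90.7 CPM (79.6–103) and 97.6 CPM (86.0–110), with a ratio of 1.08 whose interval of 0.900–1.29 held 1.

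The receptors were scarce. Ptger4, one of the prostaglandin E2 receptors, had a day 4 level of 4.26 CPM (3.20–5.56), a day 7 level of 5.93 CPM (4.62–7.51) and a day 14 level of 2.07 CPM (1.03–3.70), from 54, 69 and 11 UMIs. Day 14 was 2.87-fold below day 7 (1.51–6.02) and 2.06-fold below day 4 (1.07–4.37), the latter interval reaching nearly to 1. With equal weight per barcode both ratios were under 2-fold, at 1.78 and 1.28. Ptgfr, the prostaglandin F receptor, had 0 UMIs on days 4 and 7, which allows up to 0.237 and 0.258 CPM at 3 counts of the total, and 1 UMI on day 14. With 1 UMI in all, no groups could be compared.

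**Figure D3:**
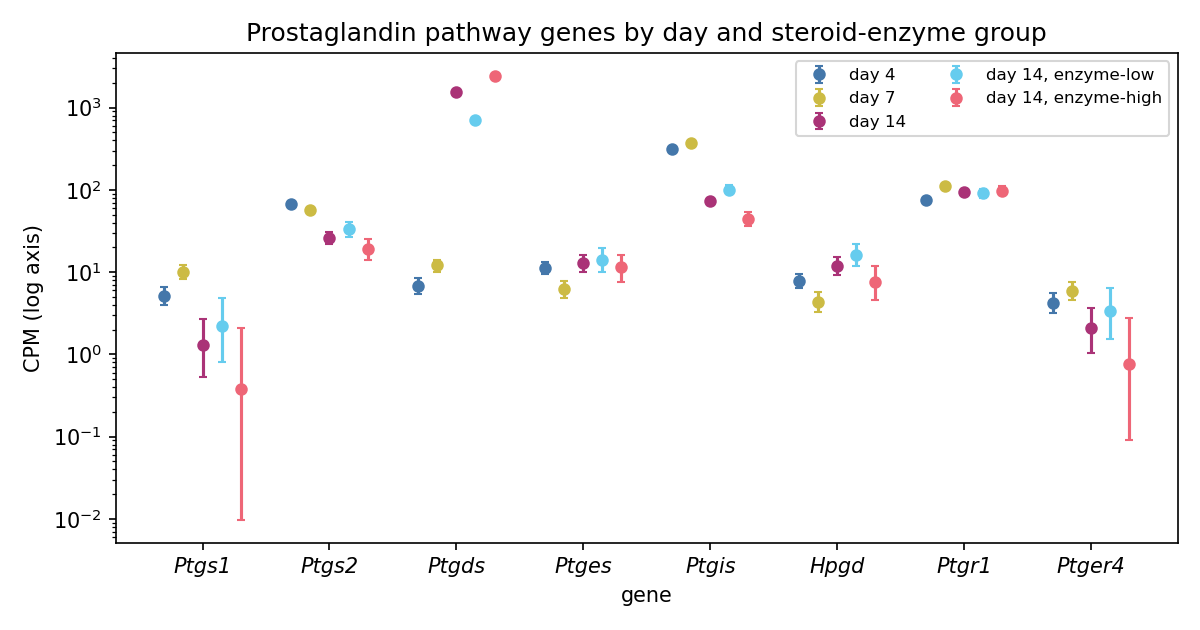
Level in CPM (log axis) of the 8 genes with at least 20 UMIs on days 4, 7 and 14 and in the steroid-enzyme-low and -high groups of day 14, 1 library per day; bars are exact Poisson 95% intervals. Ptgds stood at 1552 CPM on day 14 against 12.0 CPM on day 7, while Ptgis stood at 72.9 against 372 CPM.

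Counted over the set, 0 of the 8 genes with at least 20 UMIs were 2-fold or more higher on day 7 than on day 4 and 0 were 2-fold or more lower, beside 5.39% and 4.33% of all 12954 genes with that many UMIs. From day 7 to day 14, 3 were higher (Ptgds, Ptges, Hpgd) and 4 were lower (Ptgs1, Ptgs2, Ptgis, Ptger4), beside 12.4% and 16.6% of 12656 genes. On day 14 over day 4, 1 was higher (Ptgds) and 4 were lower (the same 4 genes), beside 16.3% and 17.6% of 12712 genes. In the high over the low group of day 14, 1 of 6 was higher (Ptgds) and 2 were lower (Ptgis and Hpgd), beside 4.01% and 7.14% of 10376 genes. The median log2 ratio of the set was 0.37, -0.69, -0.43 and -0.55 in these 4 comparisons, and that of all genes 0.10, -0.14, -0.05 and -0.06. The 3 comparisons between days share their libraries and are not independent of each other. With so few genes, chosen with earlier results of these data known, these counts describe the set and no more.

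The other genes of the pathway were read from a list of 40, of which 38 had a row and 29 were not among the 9. From day 7 to day 14, 3 of 18 with at least 20 UMIs were 2-fold or more higher (Akr1b3, Akr1b7, Cbr1) and 2 were lower (Pla2g4a, Slco2a1), beside the 12.4% and 16.6% of all genes given above. On day 14 over day 4, 6 of 19 were higher and 3 lower, beside 16.3% and 17.6%. On day 7 over day 4, 3 of 19 were higher and 3 lower, beside 5.39% and 4.33%. In the high over the low group, 2 of 13 were higher (Pla2g6 and Akr1b7) and 1 was lower (Ptgfrn), beside 4.01% and 7.14%. With so few genes, these counts describe the list, and their difference from those shares was not tested. Akr1b3, an aldose reductase that can form prostaglandin F2α, stood at 35.4, 39.6 and 245 CPM on days 4, 7 and 14, a ratio of 6.19 from day 7 to day 14 (5.56–6.90), and at 178 and 313 CPM in the low and high groups. Fam213b, which encodes a prostaglandin F synthase, stood at 11.8, 23.9 and 36.2 CPM, and Cbr1, a carbonyl reductase that acts on prostaglandin E2, at 31.0, 47.8 and 96.3 CPM. All 3 were highest on day 14, whereas Akr1c18, another list gene linked to prostaglandin F, had 7, 3 and 2 UMIs.

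Upstream, Pla2g4a, the cytosolic phospholipase A2 that releases arachidonic acid, stood at 162, 205.8 and 95.03 CPM on days 4, 7 and 14, and was 2.17-fold lower on day 14 than on day 7. With median-ratio scaling the latter difference was below 2-fold. Slco2a1, the transporter that takes prostaglandins up into cells for breakdown, stood at 24.4, 16.9 and 0.939 CPM, 18.0-fold lower on day 14 than on day 7, from 309, 196 and 5 UMIs. Both were thus lower on day 14. The other phospholipase genes of the list had at most 38 UMIs on a day. On days 7 and 14 these were 38 and 24 UMIs for Pla2g6, 30 and 13 for Pla2g2e, 7 and 2 for Pla2g4c, 4 and 9 for Pla2g5, 0 and 6 for Pla2g2d and 1 and 0 for Pla2g10. The day 14 to day 7 ratio was 4.91 for Pla2g5 (1.37–21.8), and the interval of Pla2g2d had a lower limit of 2.57. Both genes were below the minimum of 20 UMIs, and the intervals of Pla2g6, Pla2g2e and Pla2g4c held 1. On day 14 over day 4 the ratio was 2.29 for Pla2g6 (1.25–4.17) and 4.42 for Pla2g2e (1.64–13.1), against 0.586 for Pla2g4a. The other list members with at least 20 CPM on any day were Ptges2, Ptges3, Akr1b8, Ptgr2, Zadh2 and Ptgfrn. None of these 6 reached 2-fold between days, and their levels lay between 24.9 and 240 CPM. Hpgds, the other prostaglandin D synthase gene, had 9 UMIs on day 14, all in barcodes with at least 5 UMIs of the macrophage gene Lyz2.

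The contractile and matrix lists differed between the libraries along with Ptgs2 and Ptgis. The 5 contractile genes summed to 6050, 5417 and 396 CPM on days 4, 7 and 14, led by Acta2, Acta2 and Myl9, with Cnn1 at 0 on day 14. Acta2 was 29.2-fold lower on day 14 than on day 7 and Tagln 38.4-fold lower. The 6 matrix genes summed to 2315, 3853 and 803 CPM, led by Lox, Lox and Fbln5, with Lox 30.4-fold and Tnc 115-fold lower on day 14 than on day 7, while Eln was 1.72-fold and Fbln5 1.24-fold higher. In the low and high groups of day 14 the contractile genes summed to 614 and 174 CPM and the matrix genes to 1099 and 500 CPM, lower in the high group as Ptgis was. The immediate-early list stood at 577 and 268 CPM in these groups and the cycle list at 165 and 87.0 CPM. The interferon list went the other way, with 581 and 899 CPM. The cycle list summed to 831, 766 and 126 CPM, the interferon list to 950, 293 and 738 CPM and the immediate-early list to 430, 397 and 424 CPM on the 3 days. The interferon sum was mostly Bst2 on day 14 (704 CPM), which was 3.13-fold higher than on day 7 while Isg15, Ifi44 and Rsad2 were more than 2-fold lower. The immediate-early sum, led by Egr1, Jun and Egr1, covers opposite differences, with Fos 6.81-fold and Fosb 3.09-fold higher and Jun 2.82-fold lower on day 14 than on day 7. What part these shifts had in the differences of Ptgs2 and Ptgis was not tested.

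Markers of cell types moved between the libraries as well. The 7 Leydig genes (Cyp11a1, Hsd3b1, Cyp17a1, Star, Insl3, Nr5a1, Lhcgr) were all detected on each day and summed to 243, 471 and 7699 CPM, led by Star on days 4 and 7 and by Cyp11a1 on day 14. The 4 stromal progenitor genes summed to 803, 292 and 553 CPM, led by Ly6a, Nr2f2 and Ly6a. From day 7 to day 14, Ly6a was 5.59-fold and Pdgfra 1.66-fold higher, while Nr2f2 was 1.95-fold and Tcf21 1.53-fold lower. Of 8 macrophage genes, 7, 6 and 7 were detected, summing to 8.91, 26.1 and 215 CPM, led by Lyz2, with C1qa at 0 on day 4, C1qa and Adgre1 at 0 on day 7 and C1qb at 0 on day 14. The barcodes with at least 5 Lyz2 UMIs numbered 1, 3 and 3 and held 0 Ptgds, Ptgs1 and Hpgd UMIs. On day 14 these 3 barcodes held 1028 of the 1063 Lyz2 UMIs, so the macrophage sum of that day rests mainly on them. The 6 endothelial genes summed to 88.3, 119 and 35.9 CPM, led by Cdh5, with Vwf and Tie1 at 0 on day 7 and Pecam1, Tie1 and Kdr at 0 on day 14. Among 6 Sertoli genes, summing to 52.3, 50.1 and 88.1 CPM, Amh was at 0 on every day and Tsx on day 4, and Sox9 led on days 4 and 7 and Aard on day 14. Of these, Amhr2 was 34.8-fold and Aard 2.24-fold higher on day 14 than on day 7, and Sox9 2.45-fold lower. The 5 germ cell genes summed to 116, 18.7 and 38.1 CPM, led by Prm1, with Ddx4 at 0 on day 7, the 3 epithelial genes to 4.42, 1.12 and 0 CPM, led by Krt18, and of 4 mast cell genes only Cma1 had a row, with 0, 2 and 0 UMIs. In the low and high groups of day 14 the macrophage genes summed to 415 and 10.6 CPM and the endothelial genes to 52.8 and 18.6 CPM. Lyz2 made up 388 of the 415 CPM, nearly all of it from the 3 Lyz2-rich barcodes. The Sertoli genes were higher in the high group, with 67.6 and 109 CPM. Among the stromal progenitor genes, Tcf21 was 6.36-fold, Pdgfra 3.20-fold and Nr2f2 2.03-fold lower in the high group, with Ly6a at a ratio of 1.06. Whether the mix of cells had a part in the differences between days or between these groups was not tested.

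Nearest profiles over the same 4 groups were Igf1, Ccdc141 and Lima1 for Ptgs2, Cdh17, Eps8 and Rpl37rt for Ptges, Wdhd1, Stbd1 and Mastl for Ptgis, and Lgi2, Tshz2 and Id2 for Hpgd. Igf1, at a distance of 0.06 from Ptgs2, stood at 923, 750, 450 and 270 CPM in day 4, day 7 and the low and high groups of day 14. Distances over 4 groups of 3 libraries leave much room for chance likeness.

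Promoters from RefSeq on GRCm38.p6 were matched for 8 of the 9 genes, all but Ptgis. They were searched on both strands for AAGGTCA (the half-site of NR5A1, a regulator of steroidogenic genes), TGACGTCA (the cyclic AMP response element), CACGTG (an E-box) and TATAAA. Of 32851 promoters, 4.72%, 1.79%, 7.15% and 13.6% held these letters. Among the 8 genes, 0 held AAGGTCA or TGACGTCA, 1 held CACGTG (Ptgs2) and 1 held TATAAA (Hpgd). These promoters were short windows around the RefSeq starts, and motifs farther away were not searched for. Both matches are shown with their surroundings, with the motif in capitals, on the strand of the gene. The stretch of Ptgds, the gene with the largest difference, is a part of its searched window and holds none of the 4 motifs. It holds no exon of GENCODE M21 and lies in an intron of the longest transcript there. The Ptgs2 match starts 16 bases after the RefSeq start, in the first exon, and the Hpgd match starts 4 bases after the RefSeq start, which lies before the GENCODE start at 56294585.
Ptgs2, chr1:150100035-150100064, plus strand: tcaccactacgtCACGTGgagtccgcttta
Hpgd, chr8:56294544-56294573, plus strand: cacggagtgggcTATAAAagctgctgcggc
Ptgds, chr2:25469843-25469999, minus strand: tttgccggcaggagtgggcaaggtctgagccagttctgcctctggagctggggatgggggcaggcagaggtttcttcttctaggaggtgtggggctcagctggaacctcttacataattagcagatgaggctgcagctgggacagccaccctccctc
A match is a description of letters, and no binding or promoter activity was measured here.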

How the data were processed

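The authors mapped the Drop-seq reads onto GRCm38 using STAR, and Drop-seq tools gave them the UMI count of each gene in each barcode. The submitters' processing notes name STAR 2.5.2a, Picard 2.6.0 and SAMtools 1.2, while the study's methods give another STAR version. The annotation release is not given in the sources used here, so genes were matched by symbol. The deposited values are raw counts of UMIs, without normalization. The authors' merged table keeps barcodes that reach 500 genes and do not exceed 10% mitochondrial UMIs. That filter, applied to the 3300, 2400 and 1300 barcodes of the tables per day, left 2981, 2173 and 974, against 2980, 2171 and 973 in the merged table, and 0 shared entries differed. A further 495 columns of no sample used here entered no step.

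UMIs were summed per group and expressed as CPM. Ratios were counted as past 2-fold at 2 or more, or 0.5 or less, with at least 20 UMIs in both groups together. Thinning to 1500 UMIs left out 753, 429 and 179 barcodes. Doublets were not removed, since Scrublet called 0, 2 and 1 barcodes, so its scores were used only as a ranking in 1 alternative. The named genes were the 9 genes, wider-list genes of at least 20 CPM on any day, the marker and programme lists, the 3 nearest profiles of Ptgds, Ptgs2, Ptges, Ptgis and Hpgd (each with at least 200 UMIs) and the 5 genes most correlated with Ptgds. The genes behind each short count were named after their values were seen. The members and lists were chosen with earlier results of these data known. The merging of barcode sets, the removal of Lyz2-rich barcodes and of the barcode richest in a gene, and the Cyp17a1 split were added after the data had been seen. Ratio intervals and thinning were tested on simulated counts with Poisson error alone. That test does not cover the uneven spread of UMIs among real barcodes. Positions come from GENCODE M21. The software was numpy 2.4.6, pandas 2.3.3, scipy 1.17.1, scanpy 1.11.5 and, for figures, matplotlib 3.10.9 under Python 3.11.15, with seed 1.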

Additional observations from a re-analysis of the deposited data

Results flagged for a closer look

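Barcodes left out of the merged table, of which only the Ptgds and Cyp17a1 levels of day 14 are given above, held UMIs of 4 of the 9 genes above the limit that a count of 0 allows. Ptgs2 stood at 49.8, 109 and 40.4 CPM in those of days 4, 7 and 14, Ptgis at 199, 351 and 48.4 CPM, and Ptgr1 at 62.2, 109 and 64.6 CPM. Ptgds stood at 1251 CPM in the 327 such barcodes of day 14 and had 0 UMIs in the 320 of day 4 and the 229 of day 7.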

How the results depend on the processing

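No paired analysis was possible because each day had 1 library and its cells are not matched to those of another day. Of 321 recomputed ratios of the 9 genes, 284 stayed within the counting interval, 37 did not, and 0 of those past 2-fold changed direction. Of 108 ratios between list bins on merged barcodes, 104 stayed within it, and the 4 others were Ptgds on day 14 (contractile 0.390, cycle 0.553, interferon 2.38, immediate-early 0.751). Of 172 recomputed counts, 142 stayed within 1.5 times the reported count.

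The 30 other counts follow, and their cause was not tested. Among the 9 genes, 2 were higher on day 7 than on day 4 (0 as reported) with equal weight per barcode, after thinning to 1500 UMIs, and without the merged barcode with the most UMIs of the gene. On day 14 over day 7, 2 were lower (4 as reported) with equal weight per barcode and 1 was higher (3) after thinning. On day 14 over day 4, 2 were lower (4) after thinning and with a minimum of 100 UMIs. In the high over the low group, 1 was lower (2) after thinning, with that minimum and with Hsd3b1 alone, and 0 were higher (1) with Hsd3b1 alone. The gene counted as lower after thinning was not Ptgis, which was then 1.83-fold lower.

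For the other pathway genes, on day 7 over day 4, 1 was higher (3) and 0 were lower (3) after thinning and with a minimum of 100 UMIs. On day 14 over day 7, 1 was lower (2) after thinning and with median-ratio scaling. On day 14 over day 4, 3 were higher (6) and 1 was lower (3) after thinning and with that minimum. In the high over the low group, 0 were higher (2) after thinning, with that minimum and without the 6% of barcodes with the highest Scrublet score, and 1 was higher with a limit of 20. There 0 were lower (1) under a stricter filter (800 genes, 5% mitochondrial UMIs), with equal weight per barcode, with a limit of 5, with Cyp11a1 alone and with Hsd3b1 alone. Depth limits Ptgs1, Ptger4 and Ptgfr most, with fewer than 20 UMIs in the day 14 groups together.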
